A study of Mus musculus with 6 samples.

Results

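Immediate early genes are switched on within minutes of a stimulus, before any new protein has been made. MAP kinases and calcium or cAMP signals act on transcription factors that already sit at their promoters, and the transcripts are short-lived, so their level in a tissue can change quickly. Several of them code for transcription factors, among them the Fos and Jun families, whose dimers form AP-1, and others code for proteins that end the signal. In brown adipose tissue (BAT), noradrenaline released in the cold raises cAMP in brown adipocytes, a signal known to induce genes of this class. Here 10 of them were examined in BAT of mice with and without miR-22. They were *Fos*, *Fosb*, *Jun*, *Junb*, *Egr1*, *Atf3*, *Ier2*, *Ier3*, *Dusp1* and *Nr4a1*, listed by symbol and chosen with earlier results of these data known. All array probes whose RefSeq accession belonged to one of them were taken, which gave 12 probes of the 56605 on the array, and 33767 probes had a gene. All 10 genes passed the filter on dim probes and were among the 14711 genes tested.

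The samples were BAT of 3 wild-type (WT) and 3 miR-22 knockout (KO) male mice, which were 8 weeks old according to the methods of the study. The KO was constitutive, so miR-22 was missing from every cell type of the mouse and not from brown adipocytes alone. The labels give neither a cold exposure nor any drug, and they do not give the housing or the time of day at which the tissue was taken. Each mouse was measured on 1 Agilent array with 1 dye. The mature sequence deleted in the KO mice, from RefSeq on GRCm38.p6, is shown because it defines the groups, with its seed (bases 2 to 8) in capitals and at chr11:75463772-75463793 on the plus strand.
mmu-miR-22-3p: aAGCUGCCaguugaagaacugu
No probe for the mature miR-22 was found on the array, so the deletion itself could not be read from these data. The host transcript *Mir22hg* was measured at a log2 scaled signal of 1.20, 1.69 and 1.22 in the WT mice and at 2.02, 2.11 and 2.23 in the KO mice, without overlap, a difference of 0.75 ± 0.18 (SE, adjusted p = 0.108 with limma).

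Between 55.8 and 66.5% of the spots of each array were well above background, with KO mouse 1 the lowest, and no spot was saturated. The scanner software had marked between 4.87 and 17.1% of the spots as not uniform or as outliers of their replicates, most often in WT mouse 3 and KO mouse 1. Pearson's r across 16110 genes was 0.972 to 0.988 within groups and 0.957 to 0.982 between groups. All 12 brown adipocyte markers, *Ucp1* included, were well above background on all 6 arrays. The mean log2 signal of 20 skeletal muscle markers ran from −4.38 in WT mouse 3 to 2.34 in WT mouse 1, and from 0.03 in KO mouse 1 to 3.37 in KO mouse 2 (two-sided exact permutation p = 0.7). Bulk tissue cannot tell fewer cells of one type from less RNA per cell.

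Promoters of 8 of the genes, all but *Egr1* and *Ier2*, were taken from RefSeq on GRCm38.p6. Each ran from 250 bases before to 50 bases after a transcript start chosen by the table. That start was the outer end of the annotated gene for 6 of the 8. For *Fosb* it lay 73 bases and for *Nr4a1* 12944 bases inside the gene, so the stretches printed for these genes lie within the annotated gene. They were searched on both strands for the letters TGACGTCA (the cAMP response element) and TGACGT (its shorter form, also found inside TGACGTCA), TGANTCA (the AP-1 element), GCGNGGGCG (the EGR element), TATAAA and the CArG box of serum response factor. TGACGT was present in *Fos*, *Atf3* and *Dusp1*, and the full TGACGTCA in *Dusp1*. Over all 32851 promoters, TGACGT was present in 7.51% and TGACGTCA in 1.79%. The EGR element was present in *Fosb* and *Nr4a1*, against 5.55% of all promoters. Neither the AP-1 element (7.81% of all promoters) nor the CArG box (1.63%) was among the letters of these 8 windows. The promoters of *Egr1* and *Ier2* were not searched, so this absence does not cover them. TATAAA was present in *Fos* and *Junb*, against 13.6% of all promoters. The 30 bases around the cAMP and EGR elements are printed because these elements answer the signals that induce the class. They run 5′ to 3′ on the strand of the gene, with the match in capitals.
*Fos*, 66 bases before the start used, chr12:85473812-85473841, plus strand: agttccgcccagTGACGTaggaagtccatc
*Atf3*, 8 bases before, chr1:191183324-191183353, minus strand, match on the opposite strand: attaatagcattACGTCAgcctgggattgg
*Dusp1*, 143 bases before, chr17:26508597-26508626, minus strand: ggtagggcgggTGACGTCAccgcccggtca
*Fosb*, 50 bases before the start used and inside the gene, chr7:19310076-19310105, minus strand: tgacgcaagcGCGGGGGCGggtcccggagg
*Nr4a1*, 60 bases before the start used and inside the gene, chr15:101266776-101266805, plus strand, match on the opposite strand: gcgtcagtggCGCCCCCGCccctctccatg
A match is a description of the letters and not a measured binding site.

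Compared with WT mice, KO mice had no immediate early gene that changed after adjustment over all genes in the main fit. At an unadjusted p under 0.05 in limma, 3 of the 10 were lower in KO mice (*Nr4a1*, *Fos* and *Ier3*) and 0 were higher, where 8.82% of all 14711 genes were called lower and 10% higher. After adjustment, 0 of the 10 passed in either direction, against 0.0408% of all genes lower and 0.143% higher. The mean was lower in KO mice for 7 of the 10 genes, against 52.9% of all genes, and higher for 3, against 47.1%. The median difference of the 10 genes was −0.18 on the log2 scale, against −0.03 for all genes. This median depended on the processing. With quantile normalization it was −0.05, against −0.03 for all genes. With the authors' own processed values, which covered 8 of the genes, it was −0.02, against −0.04. The calls of *Nr4a1* and *Fos* rested on 2 mice per group, because the spots of WT mouse 3 and KO mouse 1 were marked as not uniform and left out. When the marked spots were kept, *Ier3* was the only one of the 10 that was called, where 11.1% of 16110 genes were called lower and 9.47% higher. After adjustment over these genes, 0 of the 10 passed, against 0.143% of all genes lower and 0.329% higher.

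**Figure D1:**
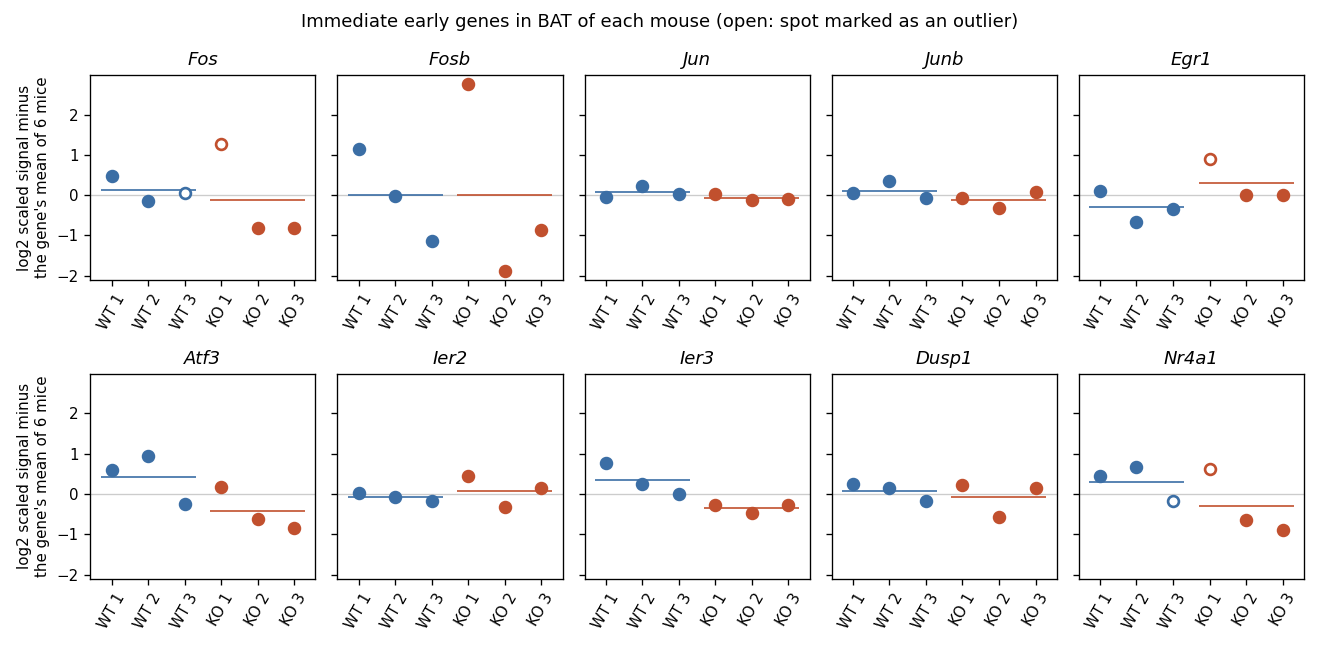
Log2 scaled signal of the 10 immediate early genes in each mouse (x axis), given relative to the mean of the gene over 6 mice (y axis). Points are single mice, blue for WT and red for KO, open points are spots marked as outliers and horizontal lines are group means with marked spots kept; *Fosb* had the widest range and KO mouse 1 was the highest KO mouse for every gene except *Junb*.

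The AP-1 genes differed in how far the mice lay apart. In each case the values below are log2 of the signal divided by the 75th percentile of the array, in the order of mouse 1, 2 and 3. *Fos*, the partner that gives AP-1 much of its inducible activity, was measured at −0.28, −0.91 and −0.71 in the WT mice and at 0.52, −1.57 and −1.57 in the KO mice. KO mouse 1 was above all other mice and the other two KO mice were below all WT mice, so the groups overlapped. Without the marked spots of WT mouse 3 and KO mouse 1, the difference was −0.98 ± 0.26 (SE, adjusted p = 0.168 with limma), a ratio of KO to WT of 0.508. With them it was −0.24 ± 0.56 (adjusted p = 0.821 with limma).

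*Fosb*, the paralog of *Fos* whose product can outlast the stimulus, was measured at 0.997, −0.18 and −1.30 in the WT mice and at 2.60, −2.03 and −1.03 in the KO mice. The highest and the lowest of the 6 values were both in KO mice, and the range was 4.63 log2 units. The group means were nearly equal, with a difference of 0.0018 ± 1.19 (adjusted p = 0.999 with limma). Its other probe was well above background on the array of WT mouse 1 alone, so no fold was taken from it.

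*Jun* and *Junb*, which code for partners of Fos proteins in AP-1, had the smallest spread of the 10 genes when marked spots were kept. *Jun* was measured at 1.54, 1.81 and 1.63 in the WT mice and at 1.62, 1.48 and 1.49 in the KO mice, with a difference of −0.13 ± 0.14 (adjusted p = 0.617 with limma). *Junb* was measured at 2.32, 2.61 and 2.20 in the WT mice and at 2.20, 1.94 and 2.34 in the KO mice, with a difference of −0.22 ± 0.18 (adjusted p = 0.521 with limma). The groups overlapped for both genes. A dim probe of *Junb*, not well above background in WT mouse 3 and KO mouse 1, differed by 0.10 ± 0.36 (adjusted p = 0.901 with limma over 31238 probes).

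*Atf3*, a stress-induced factor of the ATF family that also pairs with Jun proteins, was measured at 0.57, 0.91 and −0.30 in the WT mice and at 0.13, −0.66 and −0.88 in the KO mice. KO mouse 1 lay above WT mouse 3, and the other two KO mice lay below all WT mice. The difference was −0.86 ± 0.38 (adjusted p = 0.279 with limma), which did not pass the unadjusted threshold either in the main fit. It passed that threshold in 8 of 26 alternatives, over which the difference ranged from −1.21 to −0.17.

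*Nr4a1*, an orphan nuclear receptor that is induced by adrenergic signals in BAT, was measured at 1.08, 1.31 and 0.47 in the WT mice and at 1.27, 0.00 and −0.26 in the KO mice. The value of KO mouse 1 lay among the WT values, whereas the other two KO mice lay below all WT mice. Without the marked spots of WT mouse 3 and KO mouse 1, the difference was −1.33 ± 0.20 (adjusted p = 0.0804 with limma), a ratio of KO to WT of 0.399. With the marked spots left out, the adjusted p of *Nr4a1* was 0.0435 in limma when every probe had to be well above background on all 6 arrays. It was 0.0151 in limma with a trend and robust variance, and over all alternatives it ranged from 0.0151 to 0.681. With the marked spots kept, the difference was −0.62 ± 0.42 (adjusted p = 0.426 with limma).

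*Egr1*, a zinc finger factor that is induced by growth factors, was measured at 0.78, 0.01 and 0.34 in the WT mice and at 1.58, 0.68 and 0.69 in the KO mice. WT mouse 1 lay above 2 of the 3 KO mice, so the groups overlapped. The spot of KO mouse 1 was marked, and without it the difference was 0.31 ± 0.25 (adjusted p = 0.529 with limma). With it the difference was 0.61 ± 0.31 (adjusted p = 0.306 with limma).

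*Ier3*, which codes for an inhibitor of apoptosis that is induced by stress and NF-kappaB, was measured at 1.37, 0.83 and 0.58 in the WT mice and at 0.32, 0.13 and 0.31 in the KO mice. All 3 KO mice lay below all 3 WT mice, without overlap and without any marked spot. Among the 11576 genes without a marked spot, the KO mice lay below the WT mice for 14.7% of genes and above them for 14.2%. Once marked spots were kept, *Ier3* was the only one of the 10 whose groups did not overlap, against 17.1% of 16110 genes with KO mice lower and 11.6% with KO mice higher. The means were 0.93 ± 0.40 in WT mice and 0.25 ± 0.11 in KO mice (SD, n = 3 each), which gave a difference of −0.67 ± 0.22 (SE, adjusted p = 0.181 with limma) and a ratio of 0.626. *Ier3* was not called when the row of the slide was fitted as a block (difference −0.33) or when KO mouse 2 was left out (difference −0.61). WT mice 1 and 2 were on one row of the slide, and WT mouse 3 and all KO mice on the other.

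*Ier2*, a nuclear protein of the immediate early response, was measured at 0.94, 0.82 and 0.73 in the WT mice and at 1.36, 0.58 and 1.05 in the KO mice. The WT values lay between the KO values, and the difference was 0.17 ± 0.21 (adjusted p = 0.691 with limma). *Dusp1*, the phosphatase that switches off p38 and JNK, was measured at 2.39, 2.28 and 1.97 in the WT mice and at 2.36, 1.58 and 2.29 in the KO mice. KO mouse 2 was below all other mice and the other two KO mice were among the WT values, with a difference of −0.14 ± 0.24 (adjusted p = 0.774 with limma).

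**Figure D2:**
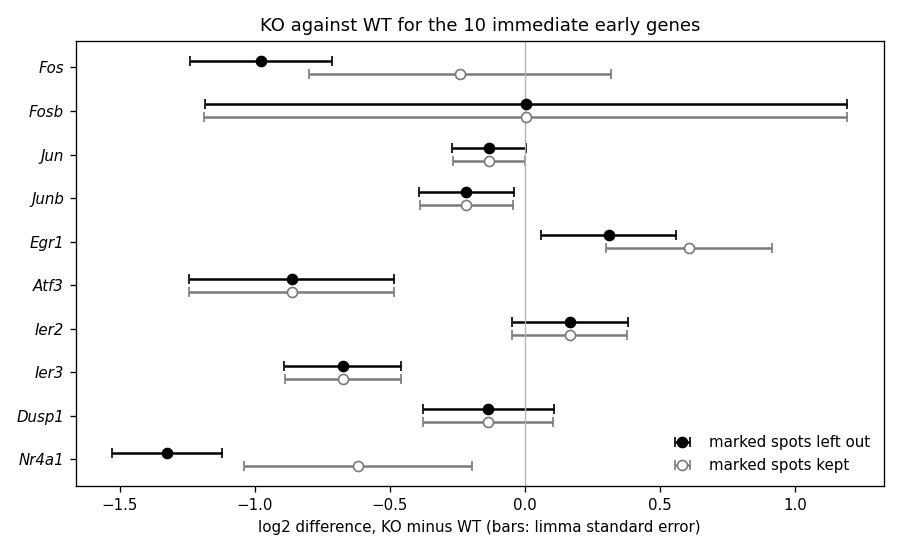
Difference of KO minus WT on the log2 scale (x axis) for the 10 immediate early genes, with limma standard errors as bars. Filled points are without and open points with the marked spots; *Fos* moved from −0.98 to −0.24 and *Nr4a1* from −1.33 to −0.62, while *Ier3* stayed at −0.67.

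The spread between mice of the same group was wide for most of these genes when marked spots were kept. With marked spots kept, the SD within groups (the pooled residual SD of limma) had a median of 0.40 log2 units over the 10 genes, against 0.22 over all 16110 genes. It was above the median of all genes for 8 of the 10 and above the 90th percentile for 4. *Fosb* stood at percentile 99.3 of all genes, *Fos* at 97.3, *Nr4a1* at 94.7 and *Atf3* at 92.9, whereas *Junb* stood at 45.8 and *Jun* at 11.6. *Egr1*, *Dusp1*, *Ier3* and *Ier2* lay between percentiles 68.2 and 87.8. The SD was 1.15 in WT and 2.44 in KO mice for *Fosb*, and 0.32 in WT and 1.21 in KO mice for *Fos*. *Ier3* went the other way, with 0.40 in WT and 0.11 in KO mice. The KO mice had the larger SD for 6 of the 10 genes, against 55.5% of all genes. With marked spots left out, the median SD within groups was 0.30 over the 10 genes, against 0.23 over all genes. *Fos* then stood at percentile 71.3 and *Nr4a1* at 30.8, each on 2 mice per group, and *Egr1* at 71.9. *Fosb* (99.3) and *Atf3* (92.4), which had no marked spot, stayed above the 90th percentile.

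**Figure D3:**
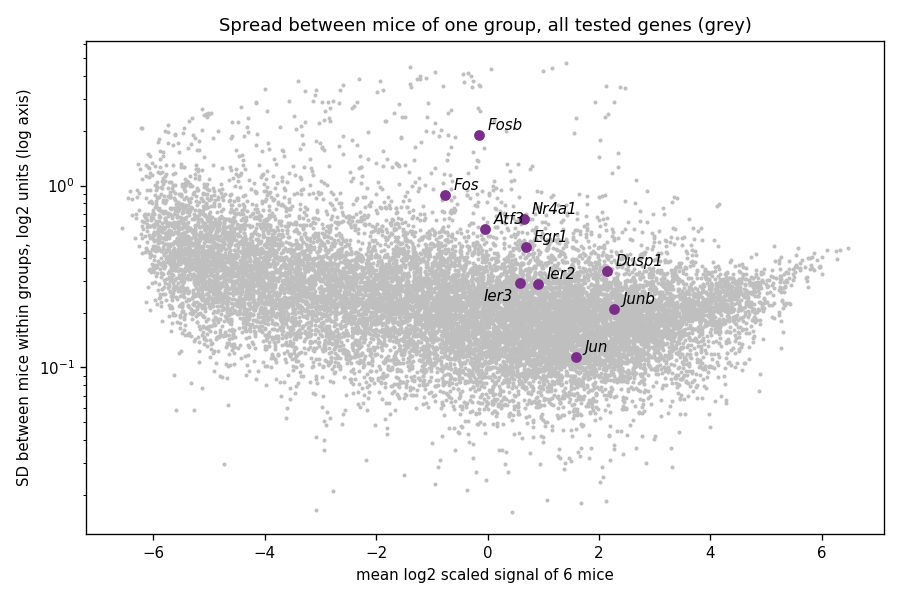
SD between mice of the same group (y axis, log2 units on a log axis) against the mean log2 scaled signal over 6 mice (x axis), with marked spots kept. Grey points are all 16110 genes and purple points the 10 immediate early genes; *Fosb*, *Fos*, *Nr4a1* and *Atf3* lie above the 90th percentile of all genes, and *Jun* lies low.

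The same mice were high or low for many of these genes. Marked spots included, KO mouse 1 had the highest KO value for 9 of the 10 genes (for *Junb* it was KO mouse 3), while it was the highest KO mouse for 24.9% of all genes. KO mouse 2 had the lowest KO value for 8 of the 10, against 40% of all genes. WT mouse 3 had the lowest WT value for 7 of the 10, against 30.5% of all genes, and WT mouse 1 the highest for 6, against 21%. The 10 genes share libraries and are induced by shared signals, so these counts describe 6 mice and not 10 separate observations. KO mouse 1 exceeded both other KO mice by more than 1 log2 unit for *Fosb*, *Fos* and *Nr4a1*, and for 124 (0.770%) of the 16110 genes. The gap was 3.63 for *Fosb*, rank 4 of all genes, 2.09 for *Fos*, rank 14, and 1.27 for *Nr4a1*, rank 72. For *Egr1* it was 0.89, rank 153, and for *Atf3* 0.79, rank 178. It was smaller for *Ier2* (0.31, rank 799) and *Jun* (0.13, rank 2108). For *Dusp1* (0.065, rank 2953) and *Ier3* (0.0093, rank 3845), KO mouse 1 was nearly level with the next KO mouse. The spots of KO mouse 1 for *Fos*, *Egr1* and *Nr4a1* were marked.

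KO mouse 1 also had high values for other inducible genes, chosen here after their values were seen. It exceeded the other KO mice by 1.76 log2 units for *Egr2* and 1.56 for *Egr3*, paralogs of *Egr1*. The gap was 1.82 for *Cxcl1* and 1.77 for *Cxcl2*, which attract neutrophils, 1.5 for the cytokine *Il6*, 1.20 for the chemokine *Ccl7* and 1.19 for *Il1b*. WT mouse 1 stood above the other WT mice in the same way for some of them, by 1.77 for *Cxcl1*, 1.19 for *Il6*, 0.997 for *Ccl7* and 0.99 for *Cxcl2*, but not for *Il1b*. The rest of these lists was mixed. Of the 23 targets of AP-1 and EGR factors measured, KO mouse 1 was the highest KO mouse for 12, by more than 1 log2 unit for 5, and the lowest for 3, among them *Spp1* (−3.89, against −2.65 and −3.06 in the other KO mice). Of 13 integrated stress response genes it was the highest for 4 and the lowest for 3. Of 10 neutrophil markers 6 were measured, 3 of which were highest in KO mouse 1, and *Ngp* and *Ltf* were well above background on no array. The mean of the neutrophil markers was −0.55 in KO mouse 1 and −1.13 and −0.92 in the other KO mice. This mean was carried by *S100a8* (−2.14 in KO mouse 1, −4.06 and −3.48 in the others) and *S100a9* (−1.10, −2.88 and −2.51), the only markers of the list more than 1 log2 unit above both. All 10 fibroblast and preadipocyte markers were lowest among the KO mice in KO mouse 1, as were all 20 skeletal muscle markers. Macrophage marker means ran from 1.09 to 1.27 in WT and from 1.26 to 1.56 in KO mice (exact permutation p = 0.2, two-sided), with KO mouse 1 the lowest KO mouse. Of these markers, *Fcgr1* differed by 1.04 (adjusted p = 0.0449 in limma with marked spots kept). The mean of the muscle markers was fitted as a covariate, and marked spots and the dim probe filter were varied, only as alternatives. The part of marker levels, of the marked spots and of signal over background in these results was not tested.

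**Figure D4:**
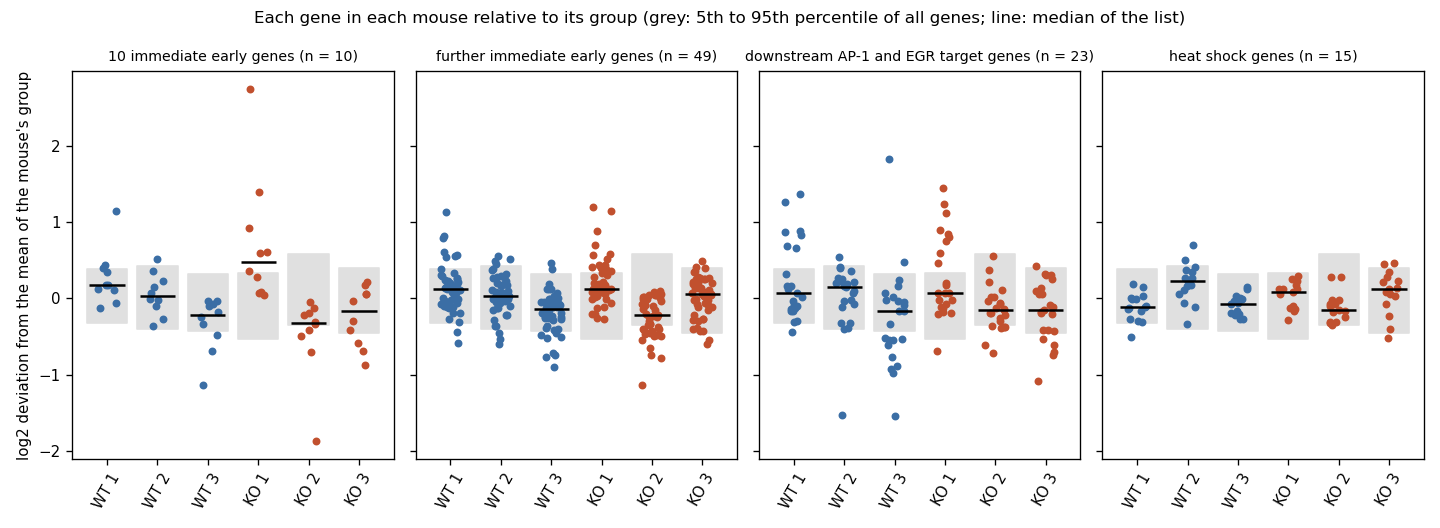
Deviation of each gene in each mouse from the mean of its group (y axis, log2 units), for the 10 immediate early genes and 3 other lists, with marked spots kept. Points are genes, black lines are medians and grey bands hold the middle of all genes (5th to 95th percentile); the median of the 10 genes was 0.48 in KO mouse 1, −0.32 in KO mouse 2 and −0.21 in WT mouse 3.

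Without KO mouse 1 most of the differences moved down. With marked spots left out, those of *Fos*, *Nr4a1* and *Egr1* did not move, because their spots of KO mouse 1 were already left out. In limma 4 of the 10 genes were then called lower and 0 higher, against 6.1% of 14518 genes lower and 9.69% higher. They were the genes called in the main fit and *Atf3*. The median difference was −0.49. With marked spots kept and without KO mouse 1, the genes called lower were *Fos* (−0.94), *Nr4a1* (−1.08), *Atf3* (−1.17) and *Ier3* (−0.71), where 7.26% of 16086 genes were called lower and 8.68% higher. *Fosb* was then at −1.38 and was not called, and *Ier2* at −0.02. With marked spots kept, KO mouse 1 had the highest KO value for 9 of the 10 genes. Leaving it out thus had to lower the KO means of these 9, so the counts above are not separate support. Leaving out this mouse was an alternative and not a correction.

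Outside the lists examined, the genes nearest to the mean pattern of the 10 over the 6 arrays were *Rfx2*, *Pldi*, *Emc1*, *Krtap28-13* and *Heg1*. The likeness was measured as the root mean square distance between deviations of a gene from its own mean and the mean deviations of the 10 genes, which were 0.38, 0.16 and −0.23 in WT mice and 0.61, −0.58 and −0.35 in KO mice. The distance was 0.0991 log2 units for *Rfx2* and 0.131 to 0.162 for the other four. Among the 10 themselves it was 0.265 for *Dusp1*, 0.291 for *Ier2* and 0.308 for *Nr4a1*, and 1.16 for *Fosb*.

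Further immediate early genes were called at about the rate of all genes in the main fit. Of 50 listed, 40 were tested. At an unadjusted p under 0.05 in limma, 4 were higher in KO mice and 4 lower, against 10% and 8.82% of all genes. The median difference was 0.01, against −0.03 for all genes. With marked spots kept, 8 of 49 were called higher and 6 lower, against 9.47% and 11.1% of all 16110 genes. *Gadd45b*, which is induced by stress and cytokines, was measured at 0.00, −0.24 and −0.19 in the WT mice and at 0.91, 0.76 and 0.79 in the KO mice. All KO mice lay above all WT mice, with a difference of 0.96 ± 0.13 (adjusted p = 0.0508 with limma, and 0.0449 with marked spots kept). *Myc* differed by 1.40 and *Ier5l* by 0.47, both called higher. *Plk3* differed by −0.73, *Nr4a2*, the paralog of *Nr4a1*, by −0.60 and *Klf10* by −0.91, all called lower. For *Klf10* a brighter probe was at 0.73 with marked spots kept, so its probes disagreed in direction. In the same list KO mouse 1 was the highest KO mouse for 27 of 49 genes and KO mouse 2 the lowest for 32, while WT mouse 3 was the lowest WT mouse for 31.

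For the kinases and factors that act upstream, 4 of 32 tested genes were higher and 4 lower, with a median difference of −0.13. These counts, and those of the small lists that follow, stand against 10% of all genes higher and 8.82% lower. *Map2k6*, the kinase that activates p38, differed by −1.14, and the ribosomal S6 kinases *Rps6ka3* and *Rps6ka1* by −0.81 and −0.58. *Rps6ka2*, of the same kinase family, was at 0.65, the p38 kinase *Mapk11* at 0.46 and the serum response factor partner *Mrtfb* at 0.41, all 3 called higher. Among phosphatases and feedback inhibitors of MAP kinases, 2 of 13 were higher and 2 lower, with a median of −0.26. *Rgs16*, which shortens G protein signals, was at −2.88, −2.87 and −3.67 in the WT mice and at −1.69, −1.62 and −1.59 in the KO mice, without overlap, and differed by 1.51 ± 0.24 (adjusted p = 0.0596 with limma). *Spry2* differed by 0.93 on a dim probe and by 0.16, not called, on a brighter probe with marked spots kept. *Dusp6*, the ERK phosphatase, differed by −0.88 and *Dusp16* by −0.72, both called lower. Of 8 partners of AP-1 proteins, *Batf3* (0.44) was called higher and *Jund* (−0.51) lower.

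Genes listed as targets of AP-1 and EGR factors showed no common direction in the main fit. Of 23 tested, 4 were higher and 2 lower, against 10% higher and 8.82% lower of all genes, with a median of 0.04. With the slide row as a block, 7 of 21 were called higher and 2 lower, with a median of 0.22. Of all 13092 genes in that fit, 6.1% were called higher and 2.38% lower. *Ccnd1*, the cyclin that drives cells into the cycle, differed by 1.31 (adjusted p = 0.0595 with limma, and 0.0365 with marked spots kept). *Tnf* differed by 0.87 and *Mmp3* by 0.70, both called higher. *Mmp9* differed by −0.52 and *Hmox1*, the heme-degrading enzyme of the oxidative stress response, by −1.07, both called lower.

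Heat shock genes, which code for chaperones and answer to protein stress, were lower in KO mice. Their list was also chosen with earlier results of these data known. Of 9 tested, 7 were called lower and 0 higher, against 8.82% of all genes lower and 10% higher. All 9 differences were negative and their median was −0.62. After adjustment, 0 of the 9 passed in either direction, against 0.0408% of all genes lower and 0.143% higher. *Hspa1a* was measured at 3.62, 4.83 and 3.93 in the WT mice and at 2.53, 1.88 and 2.29 in the KO mice, without overlap, with a difference of −1.89 ± 0.33 (adjusted p = 0.0716 with limma). *Hspa1b* differed by −1.57, but it is a near-identical copy of *Hspa1a*, so the probes may not tell them apart. *Dnaja1*, a co-chaperone of Hsp70, differed by −0.97. In the fit that kept marked spots, all 15 listed genes were lower in KO mice and 9 were called, against 11.1% of all genes, and *Hspb8*, a small heat shock protein, passed adjustment (−1.18 ± 0.16, adjusted p = 0.0449 with limma). The median of the 15 was −0.58 in that fit and −0.32 when quantile normalization was added. All 15 were still lower then and 7 were called, against 1700 of 16110 genes called lower. With the authors' values, 7 of 8 were lower and 5 were called, against 1582 of 13383 genes called lower. With the slide row as a block, 3 of 7 were called lower and 0 higher, against 2.38% of 13092 genes lower and 6.1% higher. Of 13 genes of the integrated stress response, a pathway that also induces *Atf3*, 0 were called by limma at an unadjusted p under 0.05 and the median was −0.19.

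**Figure D5:**
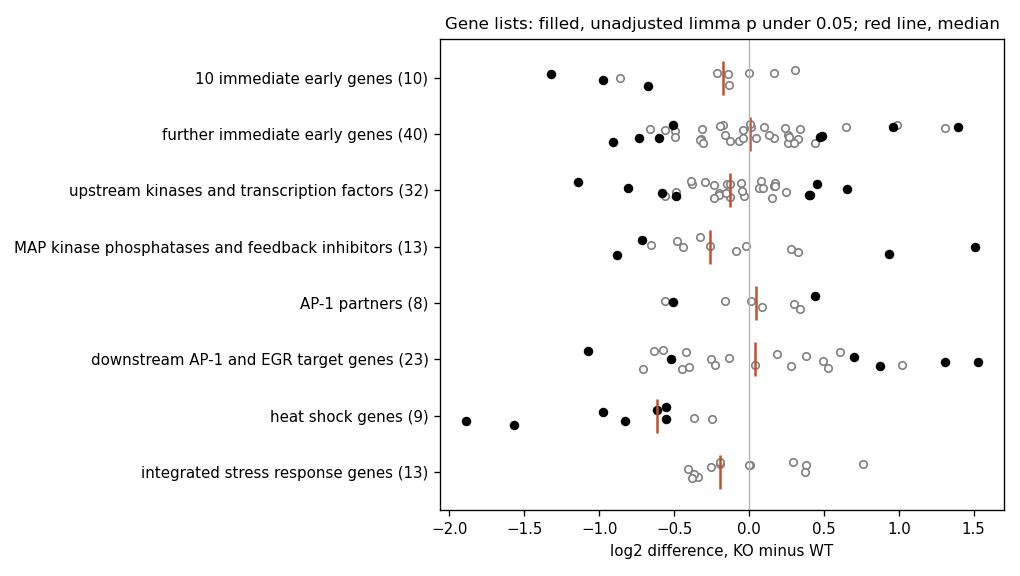
Difference of KO minus WT on the log2 scale (x axis) for each tested gene of 8 lists (number tested in brackets), with marked spots left out. Filled points have an unadjusted limma p under 0.05 and red lines are medians; the median of the heat shock genes was −0.62 and that of the 10 immediate early genes −0.18.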

How the data were processed

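Agilent mouse arrays of 6 BAT samples were used. Intensity values were deposited from Agilent Feature Extraction (version 11.5.1.1 per the file headers, 10.7 in the submitters' processing notes), as background-subtracted, detrended signal. The authors also deposited a log2 table of 27497 probes, whose processing is not given in the sources used here; its columns had medians of 8.82 to 8.85 and one shared maximum. It lists neither *Fos* nor *Nr4a1*.

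Each array was scaled by dividing its signal by its own 75th percentile over non-control spots, and log2 was taken. Probes had to be well above background on at least 3 arrays, with at least 2 unmarked values per group. The brightest of these represented its gene. WT and KO mice were compared unpaired and two-sided with limma 3.58.1 under R 4.3.3 at a threshold of 0.05, and Benjamini-Hochberg adjustment ran over 14711 genes. Array number limits the precision, given as the standard error. The limma p-values compare the group difference with the spread between mice, for which limma shares information across genes. The steps were tested on simulated data. Marker lists were compared by exact permutation, which cannot go below 0.1. Named were all 10 genes, in each other list the 3 smallest unadjusted p per direction, and the 5 genes nearest in pattern; exceptions are stated. The members and lists were chosen with earlier results of these data known. Alternatives covered scaling, the authors' values, background, dim probe filter, the mean of a gene's probes, marked spots and single mice left out. They also covered the slide row and the mean of the skeletal muscle markers as covariates. Other tests were SAM (in an own implementation on genes with 6 unmarked values), the methods' t-test, and limma with a trend and robust variance.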

Additional observations from a re-analysis of the deposited data

How the results depend on the processing

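No paired analysis was possible because mice of the 2 groups share no number that pairs them. Of the 10 genes, the number called lower in KO mice was 3 in the main fit. It was 4 with normexp, with every probe well above background on all 6 arrays, and with the muscle covariate. It was 2 with SAM, where 7 of the 10 could be fitted, and 2 with the methods' t-test. It was 1 with the authors' values (which lack *Fos* and *Nr4a1*), with marked spots kept, and with marked spots kept and quantile normalization. It was 0 with the slide row as a block, where 8 of the 10 could be fitted. It ranged from 0 to 4 when 1 mouse was left out: 4 without WT mouse 3 or KO mouse 1, with all 10 fitted, 1 without WT mouse 1 or WT mouse 2, with 8 fitted, and 0 without KO mouse 2 and 1 without KO mouse 3, with 7 fitted. *Fos* and *Nr4a1* were among the genes that could not be fitted with the row block and without WT mouse 1, WT mouse 2, KO mouse 2 or KO mouse 3, so the lower counts there include genes lost and not only calls lost. With marked spots kept it ranged from 1 to 4 over the same mice, and the number called higher from 0 to 1 (*Egr1*, 0.81, without WT mouse 1). Over all genes, the number called higher was 1476 and fell to 893 with normexp and 799 with the row block. The number called lower was 1297, 729 with SAM and 311 with the row block, and ranged from 716 (without WT mouse 2) to 1375 when 1 mouse was left out, and up to 2176 with marked spots kept and without KO mouse 3.

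The sign of *Fosb* turned with scaling to the median (−0.0061), the authors' values (−0.00026) and the muscle covariate (−0.0035). Leaving out 1 mouse gave values from −1.38 (without KO mouse 1) to 0.94 (without KO mouse 2) for *Fosb*, with −0.57 without WT mouse 3 and −0.0070 without WT mouse 2. It gave −0.28 (without KO mouse 1) to 0.11 (without KO mouse 2) for *Dusp1*, and −0.016 (without KO mouse 1) to 0.37 (without KO mouse 2) for *Ier2*. With marked spots kept it gave −0.94 (without KO mouse 1) to 0.11 (without KO mouse 2 or KO mouse 3) for *Fos*. The sign of *Dusp1* also turned with the authors' values (0.0022) and the row block (0.11). *Ier3*, *Atf3*, *Jun*, *Junb* and *Nr4a1* were lower in KO mice and *Egr1* was higher under every alternative that gave a value. Over these settings the adjusted p of limma, SAM or the methods' test ranged from 0.0911 to 0.724 for *Ier3*, from 0.0151 to 0.681 for *Nr4a1*, from 0.0824 to 0.964 for *Fos* and from 0.26 to 0.801 for *Egr1*. The cause of these shifts was not tested. Keeping marked spots together with leaving out mice or with quantile normalization was chosen after seeing the data. With no filter on dim probes the median of all genes was 0.14. The median difference of the 10 genes was 0.03 with the row block, over 8 of them, against 0.01 for all genes. It was −0.20 with normexp, against −0.07 for all genes, and −0.49 without KO mouse 1, against −0.0083.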
